A study of Mus musculus with 8 samples.

Results

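The 38 genes described here are the T cell and cytotoxic lymphocyte genes of a study of the mouse esophagus exposed to the detergent sodium dodecyl sulfate (SDS). They are a given list of gene symbols, chosen by function and not by a threshold on these libraries, and all 38 were matched by symbol among the 49315 gene identifiers of the count tables. They comprise 8 receptor chains, 3 coreceptors, 5 proximal signalling proteins, 9 adhesion and costimulation molecules, 4 cytokine receptors, 4 cytotoxic granule proteins and 5 transcription factors. RNA was sequenced from whole esophagus in 3 SDS libraries, from wild-type mice given drinking water with 0.5% SDS for 14 days, and in 5 control libraries, from wild-type mice given untreated water. The sources used here give no strain, sex or age. Nothing in the labels ties each library to an animal of its own, and every p-value therefore reflects the spread among libraries, which may be technical. The extraction text speaks of cell pellets while the study's design speaks of whole esophagus. Levels are given as CPM, the counts of a gene scaled to the same library size. Krt13, a keratin of the esophageal lining, had 41997, 44538 and 71974 CPM in SDS libraries 1, 2 and 3 and 19388 to 62960 CPM in controls. Acta1, skeletal muscle actin, had 8879, 7456 and 3093 CPM in SDS libraries 1, 2 and 3 and 9451 to 13045 CPM in controls.

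T cells recognise antigen through a receptor of paired alpha and beta, or gamma and delta, chains, which signals through the CD3 chains and the zeta chain. The kinase LCK phosphorylates those chains, ZAP-70 binds them, and LAT assembles the downstream signalling complex. Cytotoxic lymphocytes kill with perforin and granzymes released from granules, and barrier epithelia in mice hold resident gamma-delta T cells beside conventional CD4+ and CD8+ cells.

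The members were sparse, and 2 libraries stood apart in ways that touch them. Library totals were 24682611, 26669024 and 25344951 counts in SDS libraries 1, 2 and 3, and from 22033866 to 29802362 counts in the controls, so that 3 counts of a gene corresponded to 0.101 to 0.144 CPM. The 38 members summed to 3908, 4867 and 2247 counts in SDS libraries 1, 2 and 3, and to 2183 to 3043 counts in the controls. Thy1, Bcl11b and Cd5 were a large part of each sum, so it says little of the other members. They had 889, 738 and 325 counts in SDS library 1, 534, 801 and 483 in SDS library 3, and 796, 698 and 502 in control library 1. SDS library 3 did not share the member pattern of the other SDS libraries. The median member was 1.54, 2.00 and 0.23 log2 units above its control mean in SDS libraries 1, 2 and 3, against values of -0.29 to 0.42 in the 5 controls, with control library 4 the highest. SDS library 3 also had a lower sum over 8 neutrophil markers, 213 CPM against 6136 and 5822 CPM in SDS libraries 1 and 2, although all were above the 36.4 to 61.6 CPM of the controls. That sum does not show the single genes. S100a8 and S100a9 had log2 fold changes of SDS over control of 8.28 and 6.15, and Csf3r, Mmp9 and Cxcr2 had 5.25, 1.7 and 0.67. The sum over 11 adipocyte markers was 1106 to 3505 CPM in SDS libraries, 10211 CPM in control library 4 and 1583 to 3460 CPM in the other controls. The sum over 8 epithelial markers was 88021 to 148578 CPM in SDS libraries and lowest in control library 4, at 40089 CPM.

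Across all 38 members, SDS libraries 1 and 2 both lay above every control for 30 genes, while the same held for 11.3% of identifiers with a count. SDS library 3 lay above every control for 5 members (background 23.1%), within the control range for 28 and below it for 5. The 8 members for which SDS libraries 1 and 2 did not both exceed the controls were Cd5, Cd27, Cd28, Ctla4, Thy1, Foxp3, Tbx21 and Bcl11b. All 3 SDS libraries exceeded all 5 controls for 5 members, namely Trbc2, Cd3d, Lck, Il7r and Lef1, against 4.62% of identifiers with a count. For Lef1, SDS libraries 1 and 2 and control library 1 each had 4 counts, and only library scaling set them apart. No member was lower in every SDS library than in every control. In bulk tissue, fewer cells of a type and less RNA per cell cannot be told apart.

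**Figure D1:**
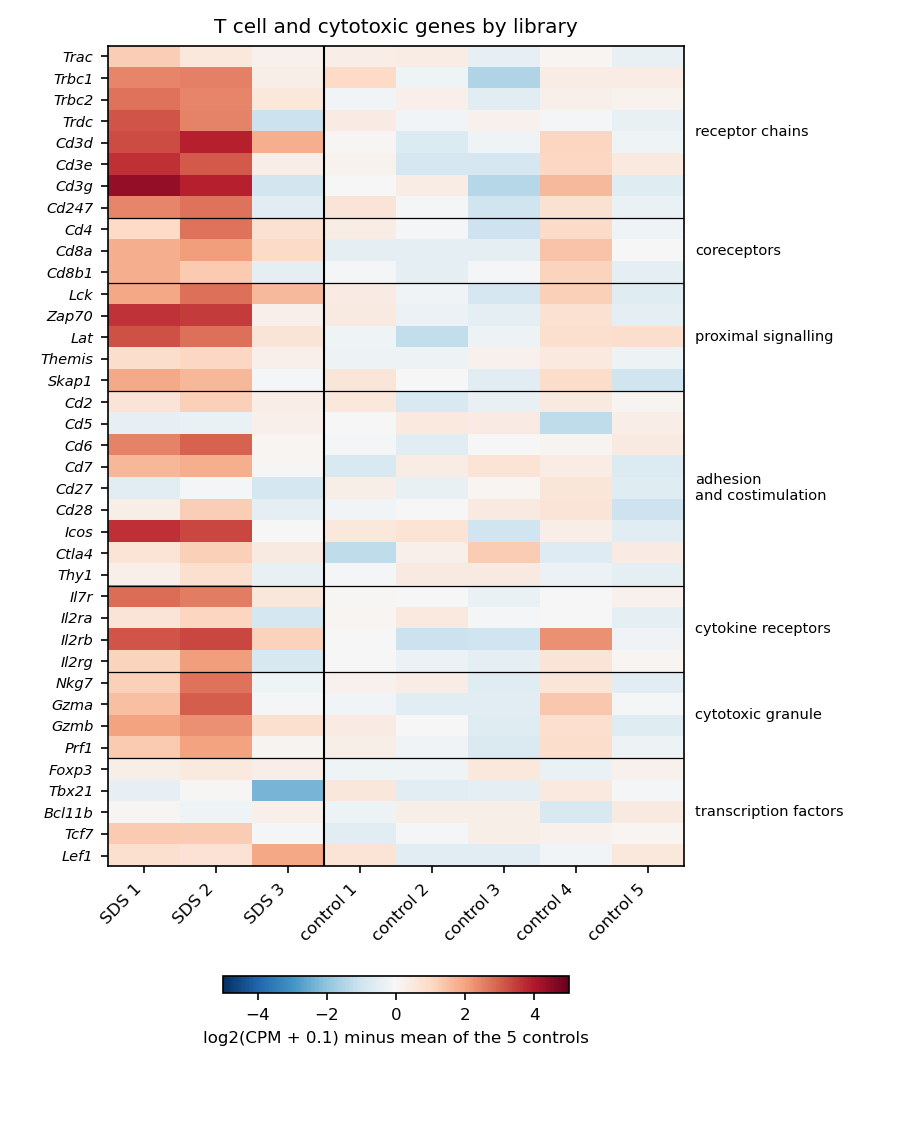
Levels of the 38 member genes (rows, by role) in the 3 SDS and 5 control libraries (columns), as log2(CPM + 0.1) minus the mean of the 5 controls. SDS libraries 1 and 2 lie above every control for 30 members, and SDS library 3 for 5.

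In the test with edgeR's quasi-likelihood method and Benjamini-Hochberg adjustment over 17179 genes, 26 members passed the count filter. The 12 below it were Cd3e, Cd4, Cd8a, Cd8b1, Themis, Skap1, Cd6, Nkg7, Gzma, Gzmb, Prf1 and Lef1. Of the 26, 1 rose at an adjusted p under 0.05, Cd3d (0.623% of all tested genes rose and 1.05% changed in either direction), 0 fell (background 0.425%) and 25 did not pass. At an unadjusted p under 0.05, 14 of the 26 were higher and 0 lower, where 9.98% of all tested genes were higher. The log2 fold change was above 1 for 14 members (4.92% of all tested genes) and above 2 for 12 (1.15%), and the median was 1.36 against -0.00 over all tested genes. A member with few counts enters the test most easily when 1 group is high, so these counts are a description of the 26 and not of the list. With SDS library 3 left out, 14 of 32 tested members rose and 0 fell, where 4.98% of all tested genes rose. Each library was left out in turn, and this omission is shown in detail because of that library's values, so its calls are no independent support. The 14 were 6 of 8 receptor chains, 2 of 4 proximal signalling proteins, 2 of 9 adhesion and costimulation molecules, 2 of 4 cytokine receptors, 1 of 2 cytotoxic granule proteins and 1 of 4 transcription factors. Leaving out SDS library 1 or SDS library 2 left 0 of 26 members past the threshold, where 19 of 17551 and 4 of 17536 tested genes rose. At an unadjusted p under 0.05, 8 and 9 members were higher and 0 lower, where 1481 and 1113 of all tested genes were higher. Other choices moved the count too: 3 members rose with no count filter (Trbc2, Cd3d and Il7r; background 0.507%), 2 with RLE scaling (Cd3d and Il7r; background 0.704%) and 11 of 30 with DESeq2 (background 4.86%), among them Cd3e and Cd6, and 0 fell under these 3 choices.

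**Figure D2:**
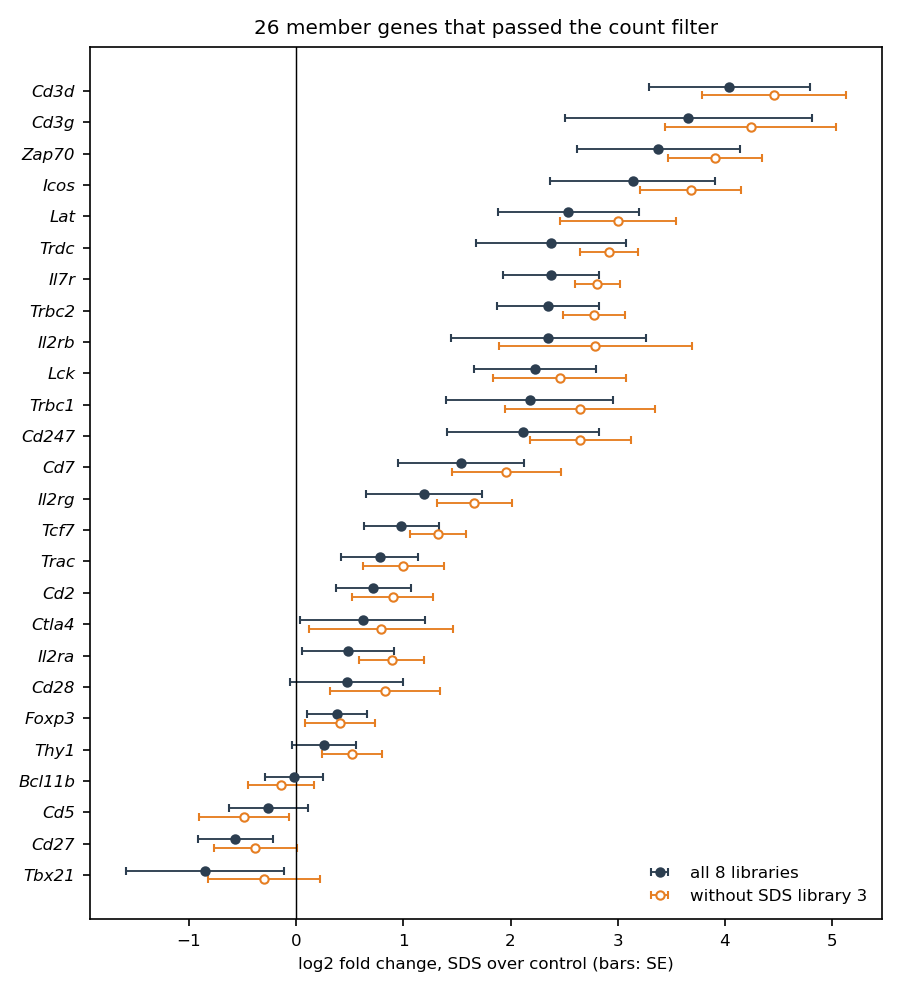
log2 fold change of SDS over control (x axis) with its standard error for the 26 tested members, with all 8 libraries (filled) and without SDS library 3 (open). Cd3d lies highest with all 8 libraries, at 4.04, and Cd5, Cd27, Bcl11b and Tbx21 lie below 0.

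The CD3 chains carry the signal of every T cell receptor. Cd3d (ENSMUSG00000032094, mm10 chromosome 9, 44981786 to 44987339, plus strand), which encodes the CD3 delta chain, had 1.45, 2.28 and 0.459 CPM in SDS libraries 1, 2 and 3, against 0.0683, 0, 0.0369, 0.237 and 0.0381 CPM in control libraries 1 to 5. All SDS libraries lay above all controls, and the values rest on 37, 65 and 11 counts in SDS libraries and 2, 0, 1, 7 and 1 counts in controls. Its log2 fold change was 4.04 ± 0.75 (SE; adjusted p = 0.0493, higher in 3 of 3 SDS libraries). This call ended when any of the libraries SDS 1, SDS 2, control 1, control 2, control 3 or control 5 was left out, with adjusted p of 0.093 to 0.196 and log2 fold changes of 3.49 or more, and it held without SDS library 3 (4.46 ± 0.67, adjusted p = 0.0106) and without control library 4 (5.04 ± 0.74, adjusted p = 0.039).

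The genes of Cd3g and Cd3d lie back to back on chromosome 9 with start sites 1355 bases apart, and Cd3e starts 27825 bases from Cd3d. Cd3g, the CD3 gamma chain, had 5.5, 3.83 and 0.0417 CPM in SDS libraries 1, 2 and 3, against 0.171, 0.241, 0, 0.71 and 0.0763 CPM in control libraries 1 to 5. The highest of the 8 were SDS libraries 1 and 2, and SDS library 3 fell among the controls with 1 count. Cd3e, the CD3 epsilon chain, had 2.16, 1.41 and 0.125 CPM in SDS libraries 1, 2 and 3, against 0.102, 0, 0, 0.27 and 0.153 CPM in control libraries 1 to 5. It was below the count filter, and SDS library 3 lay within the control range on 3 counts. Cd247, the zeta chain, had 2.95, 3.62 and 0.292 CPM in SDS libraries 1, 2 and 3, against 0.785, 0.433, 0.185, 0.845 and 0.343 CPM in control libraries 1 to 5. Its exons share 3007 bases with Pou2f1 on the opposite strand, and since the sources used here name no strand setting, its reads and those of Pou2f1 may not be separated. With all 8 libraries neither Cd3g (log2 fold change 3.66 ± 1.15, adjusted p = 0.143) nor Cd247 (2.12 ± 0.71, adjusted p = 0.159) passed. Without SDS library 3, Cd3g (4.24 ± 0.80, adjusted p = 0.0227), Cd3e (3.96 ± 0.75, adjusted p = 0.0239) and Cd247 (2.65 ± 0.47, adjusted p = 0.0194) did.

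The promoters of the 4 CD3 chain genes are shown because all 4 genes rose when SDS library 3 was left out. Each runs from 250 bases before to 50 bases after the start site on the gene's own strand, from RefSeq on GRCm38.p6, and capitals mark matches, on either strand, to 4 short motifs, none of which overlapped here. The letters AGGAAG stand for the core bound by the ETS family. The letters TGTGGT stand for the core bound by the RUNX family. For the TCF/LEF family the letters searched were CTTTGA. For the GATA family the letters searched were AGATAA. The regions are chr9:44981536-44981835 (plus strand) for Cd3d, chr9:44980382-44980681 (minus) for Cd3g, chr9:45009562-45009861 (minus) for Cd3e and chr1:165788431-165788730 (plus) for Cd247.
Cd3d: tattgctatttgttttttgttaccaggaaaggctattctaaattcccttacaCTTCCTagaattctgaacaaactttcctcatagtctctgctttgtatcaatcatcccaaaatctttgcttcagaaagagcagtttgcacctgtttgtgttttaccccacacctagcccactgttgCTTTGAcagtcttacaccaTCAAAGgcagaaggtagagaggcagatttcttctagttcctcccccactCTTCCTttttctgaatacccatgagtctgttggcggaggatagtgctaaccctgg
Cd3g: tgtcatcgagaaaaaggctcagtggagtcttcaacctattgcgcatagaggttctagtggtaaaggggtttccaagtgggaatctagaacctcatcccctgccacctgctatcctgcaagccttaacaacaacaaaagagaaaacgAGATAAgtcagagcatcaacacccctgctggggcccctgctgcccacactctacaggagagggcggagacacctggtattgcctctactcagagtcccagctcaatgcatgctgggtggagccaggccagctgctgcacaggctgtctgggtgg
Cd3e: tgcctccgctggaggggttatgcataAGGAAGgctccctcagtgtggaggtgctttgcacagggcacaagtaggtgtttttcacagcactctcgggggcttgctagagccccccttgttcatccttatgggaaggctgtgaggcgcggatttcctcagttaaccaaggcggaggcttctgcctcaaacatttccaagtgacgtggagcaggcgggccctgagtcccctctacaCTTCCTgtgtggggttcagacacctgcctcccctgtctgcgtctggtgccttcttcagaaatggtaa
Cd247: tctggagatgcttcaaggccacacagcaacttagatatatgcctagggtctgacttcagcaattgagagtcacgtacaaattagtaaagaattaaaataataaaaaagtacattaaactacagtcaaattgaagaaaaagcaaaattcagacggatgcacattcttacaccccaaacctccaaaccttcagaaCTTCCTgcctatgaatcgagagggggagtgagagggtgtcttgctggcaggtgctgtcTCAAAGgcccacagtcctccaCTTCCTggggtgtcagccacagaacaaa
The ETS core lay at positions -198 and -5 of Cd3d, -224 and -17 of Cd3e, and -57 and 23 of Cd247, counted from the start site. TCF/LEF cores lay at -73 and -54 of Cd3d and at 2 of Cd247, and the only marked match in Cd3g was a GATA core at -104. Among 32851 promoters of the same length in the table, 35.4% held the ETS letters, 16.8% RUNX, 16% TCF/LEF and 11.2% GATA. The table held 33 promoters of 24 members, of which 19 held the ETS letters, 9 RUNX, 7 TCF/LEF and 3 GATA. A match is a description of the letters, not a bound site.

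The antigen-binding chains differed among themselves. Trdc (chromosome 14, 54142851 to 54148868), the constant region of the delta chain, had 10.2, 6.54 and 0.459 CPM in SDS libraries 1, 2 and 3, against 1.47, 0.963, 1.26, 1.01 and 0.801 CPM in control libraries 1 to 5. Every control lay below SDS libraries 1 and 2 and above SDS library 3. The exons of Trdc share 207 bases with Trdv5 and 96 with Gm43434 on the opposite strand, so their reads may not be separated. Trac (chromosome 14, 54220521 to 54224206), the constant region of the alpha chain, had 1.38, 0.808 and 0.626 CPM in SDS libraries 1, 2 and 3, against 0.683, 0.722, 0.369, 0.575 and 0.381 CPM in control libraries 1 to 5. Here too SDS libraries 1 and 2 exceeded the controls, by less. The log2 fold change was 2.38 ± 0.70 for Trdc (adjusted p = 0.124) and 0.78 ± 0.36 for Trac (adjusted p = 0.296) with all libraries. Without SDS library 3, Trdc rose by 2.92 ± 0.27 (adjusted p = 0.00158), while Trac had 1.00 ± 0.38 and did not pass (adjusted p = 0.173). The difference between the 2 genes was not tested.

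As a share of the counts of Trdc and Trac together, Trdc made up 88.1% (95% Clopper-Pearson interval 83.9 to 91.6), 89.0% (83.9 to 92.9) and 42.3% (23.4 to 63.1) in SDS libraries 1, 2 and 3. In control libraries 1 to 5 it made up 68.3%, 57.1%, 77.3%, 63.8% and 67.7%. The highest shares were in SDS libraries 1 and 2 and the lowest in SDS library 3, and the intervals cover counting error only. Per kilobase of the deposited gene length, Trdc had 2.64, 1.69 and 0.119 CPM in SDS libraries 1, 2 and 3 and 0.207 to 0.38 CPM in controls. On the same scale Trac had 1.47, 0.864 and 0.669 CPM in SDS libraries and 0.395 to 0.772 CPM in controls. By length, then, Trdc was above Trac in SDS libraries 1 and 2 and below it in SDS library 3 and in all 5 controls.

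Trbc1 and Trbc2, near-identical constant regions of the beta chain on chromosome 6, may exchange reads, and their split is uncertain. Trbc2 had 3.62, 2.99 and 0.709 CPM in SDS libraries 1, 2 and 3, against 0.41, 0.578, 0.295, 0.575 and 0.534 CPM in control libraries 1 to 5. The groups did not overlap. Its log2 fold change was 2.35 ± 0.48 (adjusted p = 0.0582), and 2.78 ± 0.29 without SDS library 3 (adjusted p = 0.00254). Trbc1 had 1.45, 1.55 and 0.25 CPM in SDS libraries 1, 2 and 3, against 0.478, 0.144, 0, 0.27 and 0.267 CPM in control libraries 1 to 5, with SDS library 3 inside the control range (2.18 ± 0.78, adjusted p = 0.183). Over the summed counts of each group, Trbc1 was 31.0% of the beta chain counts in SDS libraries and 33.7% in controls. Summed per kilobase, the beta chains had 7.17, 6.38 and 1.36 CPM in SDS libraries and 0.427 to 1.23 CPM in controls.

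**Figure D3:**
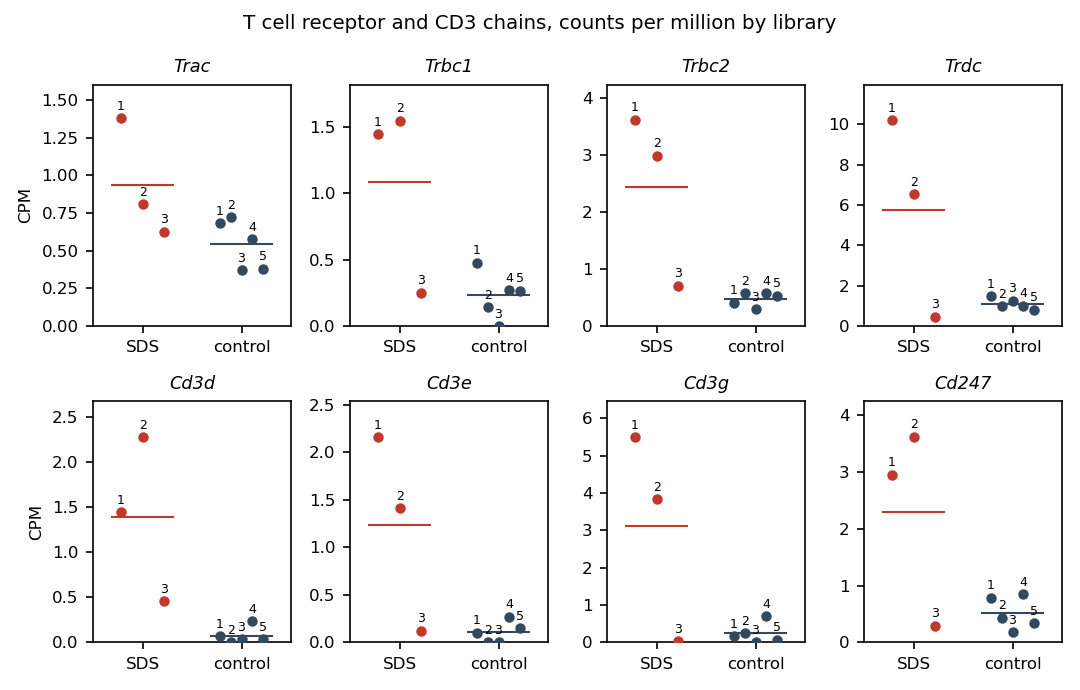
CPM (y axis) of the 8 receptor chain genes in the SDS (left) and control (right) libraries, with numbers naming the libraries and lines the group means. SDS libraries 1 and 2 lie above every control in all 8 panels, and SDS library 3 does so for Trbc2 and Cd3d.

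The CD3 chain counts were also set beside Ptprc, which encodes CD45, the surface phosphatase of all leukocytes. Ptprc had 910, 2182 and 217 counts in SDS libraries 1, 2 and 3, against 403, 147, 259, 453 and 279 counts in control libraries 1 to 5 (log2 fold change 1.84, adjusted p = 0.123). Per 100 Ptprc counts there were 33.7, 14.5 and 10.1 CD3 chain counts in SDS libraries 1, 2 and 3, against 8.19, 9.52, 2.32, 13.5 and 5.73 in control libraries 1 to 5. SDS library 1 stood highest, SDS library 2 was just above control library 4, and SDS library 3 lay between control libraries 4 and 2. These CD3 chain counts include Cd247, whose reads and those of Pou2f1 may not be separated. Cd247 held 75 of 307, 103 of 317 and 7 of 22 CD3 chain counts in SDS libraries 1, 2 and 3. In control libraries 1 to 5 it held a larger share, 23 of 33, 9 of 14, 5 of 6, 25 of 61 and 9 of 16.

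The coreceptors stayed near the detection floor. Cd4, the coreceptor of helper cells, had 0.314, 1.26 and 0.25 CPM in SDS libraries 1, 2 and 3, against 0.171, 0.0963, 0, 0.304 and 0.0763 CPM in control libraries 1 to 5. Cd8a, a chain of the coreceptor of cytotoxic cells, had 0.393, 0.492 and 0.167 CPM in SDS libraries 1, 2 and 3, against 0, 0, 0, 0.27 and 0.0381 CPM in control libraries 1 to 5. Its partner Cd8b1 had 0.393, 0.246 and 0 CPM in SDS libraries 1, 2 and 3, against 0.0341, 0, 0.0369, 0.203 and 0 CPM in control libraries 1 to 5. For all 3 genes SDS libraries 1 and 2 were above every control and control library 4 was the highest control, but all 3 were below the count filter with all 8 libraries. Without that filter edgeR gave log2 fold changes of 2.19 for Cd4 (adjusted p = 0.232), 2.36 for Cd8a (adjusted p = 0.332) and 1.81 for Cd8b1 (adjusted p = 0.543), and none passed. Cd8a made up 35.9% (25.3 to 47.6) of the summed Cd8a and Cd4 counts in SDS libraries and 33.3% (16.5 to 54.0) in controls. Control library 4 held 8 of the 9 control counts of Cd8a, and without it the control share was 1 of 10 counts (95% interval 0.253% to 44.5%). By SDS library the share was 55.6%, 28.0% and 40.0%, and a difference between the groups was not detectable at this depth.

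The proximal signalling genes were higher in SDS libraries 1 and 2 to differing degrees. Zap70, the kinase that binds the phosphorylated CD3 and zeta chains, had 3.5, 3.27 and 0.25 CPM in SDS libraries 1, 2 and 3, against 0.307, 0.144, 0.111, 0.406 and 0.114 CPM in control libraries 1 to 5. Lat, the adaptor downstream of it, had 4.09, 3.02 and 0.626 CPM in SDS libraries 1, 2 and 3, against 0.307, 0.0963, 0.295, 0.71 and 0.763 CPM in control libraries 1 to 5. In both, SDS library 3 fell among the controls. Without SDS library 3, Zap70 rose by 3.91 ± 0.44 (adjusted p = 0.0035) and Lat by 3.00 ± 0.54 (adjusted p = 0.0196), and with all libraries their adjusted p were 0.0709 and 0.0983. Lck, the kinase that starts the cascade, had 1.34, 2.46 and 1.08 CPM in SDS libraries 1, 2 and 3, against 0.41, 0.241, 0.111, 0.777 and 0.153 CPM in control libraries 1 to 5. Its groups did not overlap, but it did not pass with all libraries (2.23 ± 0.57, adjusted p = 0.0937) or without SDS library 3 (adjusted p = 0.0562). Themis, needed in thymocyte selection, had at most 4 counts in any library, and Skap1, an adaptor in integrin activation, had 16, 15 and 2 counts in SDS libraries 1, 2 and 3 and 0 to 8 counts in controls.

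Among adhesion and costimulation genes, Icos and Cd6 moved with the CD3 chains and several others did not. Icos, the inducible costimulator of activated T cells, had 5.19, 4.22 and 0.334 CPM in SDS libraries 1, 2 and 3, against 0.512, 0.578, 0.111, 0.439 and 0.191 CPM in control libraries 1 to 5. Cd6, a scavenger-receptor family molecule that binds ALCAM, had 1.1, 1.55 and 0.125 CPM in SDS libraries 1, 2 and 3, against 0.102, 0.0481, 0.111, 0.135 and 0.191 CPM in control libraries 1 to 5. Both had SDS library 3 within the control range. Without it Icos rose by 3.68 ± 0.47 (adjusted p = 0.00617) and Cd6 by 3.43 ± 0.40 (adjusted p = 0.00426). With all libraries Icos had an adjusted p of 0.0849, and Cd6 was below the count filter.

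The other adhesion and costimulation genes overlapped between groups and did not pass with or without SDS library 3. Cd5, a damper of receptor signalling, ran the other way: it had 12.8, 13.4 and 20.1 CPM in SDS libraries 1, 2 and 3, against 17.1, 23.9, 22.7, 7.03 and 21.7 CPM in control libraries 1 to 5 (log2 fold change -0.26 ± 0.37, adjusted p = 0.756). Its lowest library was control 4, the control with the highest CD3 chain sum. Cd27, a tumour necrosis factor receptor family costimulator, had 1.14, 1.58 and 0.876 CPM in SDS libraries and 1.07 to 2.64 CPM in controls (-0.57 ± 0.35, adjusted p = 0.439). Cd2, an adhesion molecule, had 2.48, 3.62 and 1.96 CPM in SDS libraries 1, 2 and 3 and 0.867 to 2.25 CPM in controls. Cd7 had 0.982, 1.09 and 0.25 CPM in SDS libraries and 0.102 to 0.443 CPM in controls. The costimulatory receptor Cd28 and its inhibitory relative Ctla4 reached 1.48 and 1.58 CPM in SDS libraries, and 0.946 and 1.70 CPM in controls. Thy1, a surface glycoprotein also carried by fibroblasts and neurons, had the highest per-length mean of the 38 in both groups and log2 fold change 0.26 ± 0.30 (adjusted p = 0.695).

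The next lowest adjusted p after Cd3d belonged to a cytokine receptor. Il7r, the IL-7 receptor alpha chain, which T cells and innate lymphoid cells need to survive, had 6.17, 5.27 and 1.25 CPM in SDS libraries 1, 2 and 3, against 0.853, 0.819, 0.628, 0.811 and 0.953 CPM in control libraries 1 to 5. The groups did not overlap, and the controls lay close together. It missed the threshold with all libraries (2.38 ± 0.45, adjusted p = 0.0507) and rose by 2.81 ± 0.21 without SDS library 3 (adjusted p = 0.000603). Il2rg, the gamma chain shared by the receptors of IL-2, IL-7 and IL-15, had 6.05, 12.1 and 1.54 CPM in SDS libraries 1, 2 and 3, against 2.8, 2.26, 1.99, 4.39 and 2.94 CPM in control libraries 1 to 5. SDS library 3 was the lowest of the 8, and without it Il2rg rose by 1.66 ± 0.35 (adjusted p = 0.0329). Il2rg shares 728 exon bases with Gm20489 on its strand, so its reads may be divided. Il2rb, the beta chain of the IL-2 and IL-15 receptors, had 3.58, 4.11 and 0.834 CPM in SDS libraries 1, 2 and 3, against 0.307, 0.0963, 0.111, 1.93 and 0.267 CPM in control libraries 1 to 5. Control library 4 decided its test: the log2 fold change was 2.35 ± 0.91 (adjusted p = 0.214) with that library and 3.81 ± 0.63 (adjusted p = 0.049) without it, where 0.465% of tested genes rose. Il2ra, the IL-2 receptor alpha chain of activated and regulatory T cells, had 2.36, 3.2 and 0.751 CPM in SDS libraries 1, 2 and 3, against 1.6, 2.12, 1.37, 1.45 and 1.03 CPM in control libraries 1 to 5 (0.48 ± 0.43, adjusted p = 0.601).

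The cytotoxic granule genes were low throughout, and all 4 were below the count filter with all 8 libraries. Without that filter edgeR gave adjusted p of 0.213 for Nkg7, 0.153 for Gzmb, 0.339 for Prf1 and 0.327 for Gzma, and none passed. Prf1, the pore-forming perforin, had 0.314, 0.562 and 0.0834 CPM in SDS libraries 1, 2 and 3, against 0.102, 0.0481, 0, 0.203 and 0.0381 CPM in control libraries 1 to 5. Gzma, the protease granzyme A, had 0.314, 1.09 and 0.0417 CPM in SDS libraries 1, 2 and 3, against 0.0341, 0, 0, 0.27 and 0.0381 CPM in control libraries 1 to 5. Gzmb, granzyme B, had 0.511, 0.632 and 0.167 CPM in SDS libraries 1, 2 and 3, against 0.102, 0.0481, 0, 0.169 and 0 CPM in control libraries 1 to 5. Each was highest in SDS library 2, and in each control library 4 was the highest control. Nkg7, a granule membrane protein of cytotoxic cells, had 0.511, 1.62 and 0.125 CPM in SDS libraries 1, 2 and 3, against 0.205, 0.241, 0.0739, 0.304 and 0.0763 CPM in control libraries 1 to 5. Without SDS library 3 it rose by 2.55 ± 0.61 (adjusted p = 0.0469), and Gzmb did not pass (adjusted p = 0.0669).

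Of the transcription factors, Tcf7 followed the receptor chains in part. Tcf7, the HMG-box factor TCF-1, had 3.38, 3.23 and 1.25 CPM in SDS libraries 1, 2 and 3, against 0.853, 1.25, 1.59, 1.52 and 1.41 CPM in control libraries 1 to 5 (0.98 ± 0.35, adjusted p = 0.183; 1.32 ± 0.26 without SDS library 3, adjusted p = 0.0276). Foxp3, the factor of regulatory T cells, had 1.06, 1.23 and 1.08 CPM in SDS libraries 1, 2 and 3, against 0.717, 0.722, 1.26, 0.642 and 0.992 CPM in control libraries 1 to 5. The groups overlapped (0.38 ± 0.28, adjusted p = 0.526, and 0.544 without SDS library 3), and Foxp3 shares exon bases with Flicr, Ccdc22, Ppp1r3f and Gm36995. Tbx21, T-bet, the factor of type 1 and cytotoxic programmes, had 0.275, 0.422 and 0 CPM in SDS libraries 1, 2 and 3 and 0.241 to 0.649 CPM in controls (-0.85 ± 0.74, adjusted p = 0.590). Bcl11b, a T lineage commitment factor that keratinocytes also express, had 29, 24.1 and 33.4 CPM in SDS libraries 1, 2 and 3 and 16.3 to 38.1 CPM in controls (-0.02 ± 0.27, adjusted p = 0.971). Lef1, the relative of Tcf7, was the only member highest in SDS library 3, with 4, 4 and 11 counts in SDS libraries 1, 2 and 3 and 4, 0, 0, 1 and 3 counts in control libraries 1 to 5.

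Related genes outside the list were read from 5 lists on T cell receptor signalling, T cell activation and trafficking, T helper factors and cytokines, gamma-delta T cells, and NK and further cytotoxic genes. Of 112 matched genes 64 passed the count filter, and 3 rose and 0 fell, where 0.623% of all tested genes rose and 0.425% fell. Those were Havcr2, the inhibitory receptor TIM-3, and 2 genes of the gamma-delta list, Blk and Cd163l1. Blk, a Src family kinase of B cells and of IL-17-producing gamma-delta T cells, had 6.21, 5.06 and 0.792 CPM in SDS libraries 1, 2 and 3, against 0.0341, 0.0481, 0.148, 0.237 and 0.114 CPM in control libraries 1 to 5 (log2 fold change 5.03 ± 0.72, adjusted p = 0.0303). Cd163l1, a scavenger receptor of gamma-delta T cells, had 32, 18.4 and 0.542 CPM in SDS libraries 1, 2 and 3, against 0.375, 0.53, 0.185, 0.203 and 0.496 CPM in control libraries 1 to 5 (5.58 ± 0.99, adjusted p = 0.0470). Both had all SDS libraries above all controls, for Cd163l1 by little in SDS library 3. Havcr2 had 4.48, 5.8 and 1.0 CPM in SDS libraries 1, 2 and 3, against 0.341, 0.241, 0.258, 0.608 and 0.191 CPM in control libraries 1 to 5 (3.48 ± 0.57, adjusted p = 0.0369).

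Of the lists with no gene past the threshold, the signalling list had Prkcq, protein kinase C theta, at a log2 fold change of -0.82 (adjusted p = 0.0871). The T helper list had Stat4, a transducer of IL-12 signals, at 2.53 (adjusted p = 0.0507) and Il5, the eosinophil growth cytokine, at -1.15 (adjusted p = 0.0538). The NK list had Gzmm, granzyme M, at -1.17 (adjusted p = 0.0507) and Klrd1, the NK receptor CD94, at 2.97 (adjusted p = 0.0518). Without SDS library 3, 35 of 78 tested related genes rose, where 4.98% of all tested genes rose. In the same comparison 2 of 78 fell, Gzmm (-1.29, adjusted p = 0.0254) and Il5 (-1.19, adjusted p = 0.0391), where 1.94% of all tested genes fell. By list, 9 of 24 signalling genes, 12 of 21 activation genes, 6 of 15 T helper genes, 6 of 9 gamma-delta genes and 2 of 9 NK genes rose in that comparison.

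Further gamma-delta and IL-17 genes, picked after their values were seen, had most of their counts in SDS libraries 1 and 2. Tcrg-C1, a constant region of the gamma chain, had 145, 109 and 7 counts in SDS libraries 1, 2 and 3, against 4, 3, 5, 7 and 4 counts in control libraries 1 to 5. Tcrg-V6, a gamma variable segment, had 42, 16 and 1 counts in SDS libraries 1, 2 and 3 and 0 counts in every control. Il17a, a cytokine that recruits neutrophils, had 61, 55 and 0 counts in SDS libraries 1, 2 and 3, against 0, 0, 0, 1 and 0 counts in control libraries 1 to 5. Il17f, its relative, had 57, 43 and 1 counts in SDS libraries 1, 2 and 3, against 1, 0, 0, 1 and 0 counts in control libraries 1 to 5. SDS library 3 was within or close to the control range for all 4. All 4 were below the count filter with all 8 libraries. Without that filter edgeR called Tcrg-C1 (4.22, adjusted p = 0.0349) and Il17f (6.02, adjusted p = 0.0392), and did not call Il17a (adjusted p = 0.0589) or Tcrg-V6 (adjusted p = 0.172). DESeq2 called Tcrg-C1 (adjusted p = 5.8e-06), Tcrg-V6 (adjusted p = 0.000893) and Il17f (adjusted p = 0.000346), and did not call Il17a (adjusted p = 0.0667). Without SDS library 3, Tcrg-C1 rose by 4.76 (adjusted p = 0.00018), Il17a by 7.48 (adjusted p = 0.000689) and Il17f by 6.58 (adjusted p = 0.00135).

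**Figure D4:**
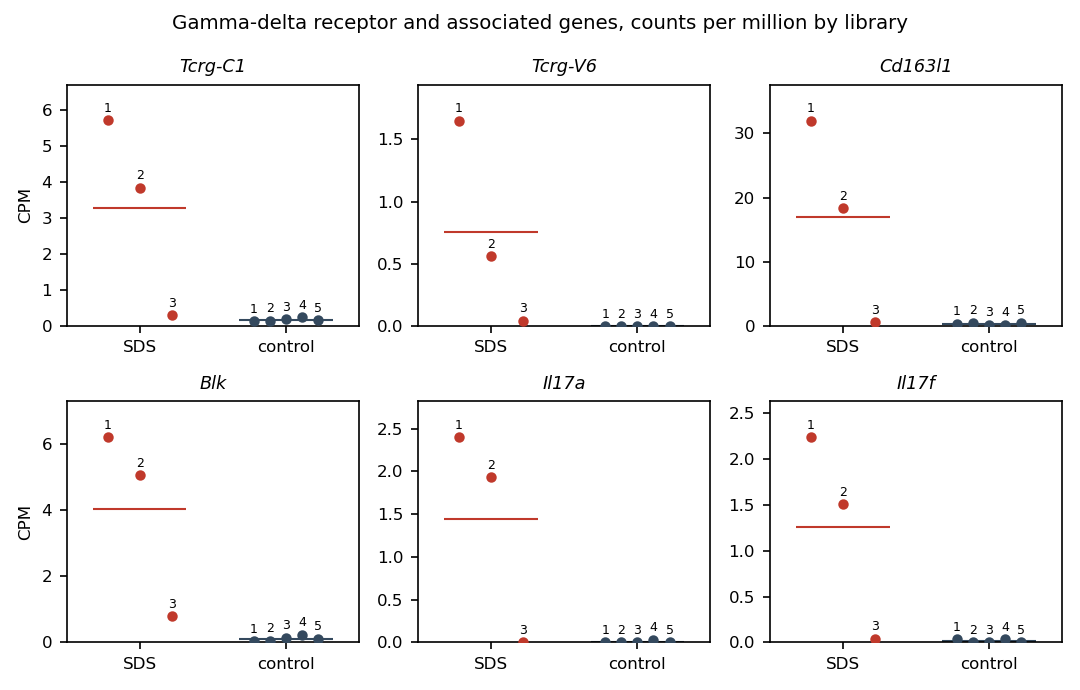
CPM (y axis) of gamma chain genes, Cd163l1, Blk, Il17a and Il17f in the SDS (left) and control (right) libraries, with numbers naming the libraries and lines the group means. SDS libraries 1 and 2 lie above every control in each panel, and SDS library 3 has 7 counts of Tcrg-C1 and 0 of Il17a.

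Markers of other cells moved with the members in part. The 4 CD3 chains, Cd247 among them, summed to 12.1, 11.1 and 0.918 CPM in SDS libraries 1, 2 and 3, against 1.13, 0.674, 0.222, 2.06 and 0.61 CPM in control libraries 1 to 5. The neutrophil list was high in the same SDS libraries, and 2 of its 5 tested genes rose, S100a8 and S100a9 (log2 fold changes 8.28 and 6.15). The others did not pass: Csf3r (5.25, adjusted p = 0.0507), Mmp9 (1.7, adjusted p = 0.421) and Cxcr2 (0.67, adjusted p = 0.515). Ly6g, Mpo and Elane were below the count filter. Which cells the S100a8 and S100a9 transcripts came from was not tested. The sum of 16 macrophage, monocyte and dendritic cell markers was 889, 1795 and 470 CPM in SDS libraries 1, 2 and 3, and 336 to 560 CPM in controls, with 1 of 16 tested genes higher, Cd207. Without SDS library 3, 13 of these 16 genes rose and 0 fell, where 4.98% of all tested genes rose. In that comparison 3 of 5 tested neutrophil genes and 1 of 5 tested B cell genes also rose. DESeq2 with all 8 libraries called 7 of the 16 higher (background 4.86%). The 10 B cell markers summed to 18.5, 17.9 and 42.5 CPM in SDS libraries 1, 2 and 3, and 16.1 to 45.5 CPM in controls, with 1 of 5 tested genes higher, Cd22. That sum does not show the single genes. Cd22, Cd79a, Cd79b and Ms4a1 had log2 fold changes of 3.8, 2.33, 2.08 and 2.44, and Blnk had -0.69. All but Cd22 did not pass. Lymph node markers summed to 2.85 to 3.96 CPM in SDS libraries and 0.554 to 2.76 CPM in controls, with Ccl21a and Glycam1 at 0 in every library. Thymus markers summed to 14.3 to 29.1 CPM in SDS libraries and 10.2 to 60.5 CPM in controls, with Rag2 at 0 in every library. Skeletal muscle markers summed to 11036 to 22017 CPM in SDS libraries and 25191 to 34383 CPM in controls without overlap. The part of these cell markers in the members' differences was not tested.

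**Figure D5:**
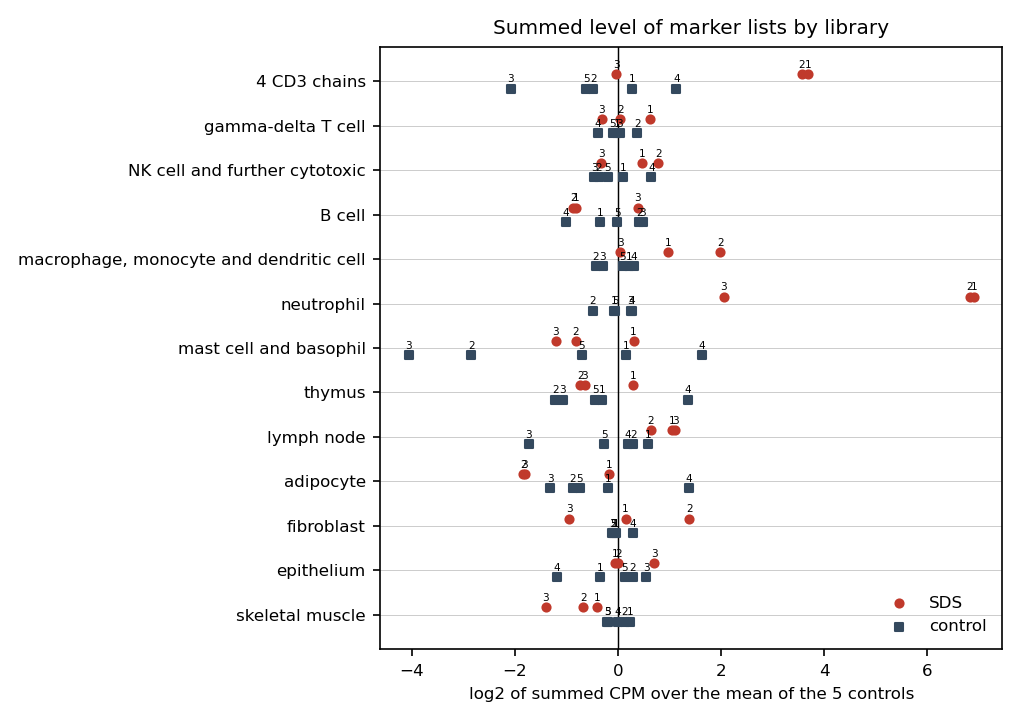
Summed CPM of each marker list (rows) in each library, as log2 of the sum over the mean of the 5 controls (x axis), with numbers naming the libraries. The 4 CD3 chains and the neutrophil list lie far to the right in SDS libraries 1 and 2, and SDS library 3 lies nearer the controls in both. A sum does not show the single genes of its list.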

How the data were processed

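RNA was measured in 8 whole esophagus libraries. The authors' deposited tables hold whole-number counts per gene and a gene length for each library. The submitters' processing notes name STAR 2.6.1c, Subread, bcl2fastq and FastQC, and the build mm10. No annotation release, strand setting or rule for multi-mapped reads is named in the sources used here, so near-identical, overlapping and antisense genes are uncertain. Symbols were matched for 48970 of 49315 identifiers. For 31 of the 38 members start and end are the same in GENCODE M21, for 9 M21 has another exon length, and 12 share exon bases with another gene.

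Genes with too few counts were removed (edgeR filterByExpr, minimum count 10, minimum total 15). SDS was compared with control by edgeR 4.0.16 in R 4.3.3 (TMM scaling, robust quasi-likelihood test, Benjamini-Hochberg adjustment over all genes tested, threshold 0.05). CPM uses TMM-scaled library sizes, errors marked ± are SE, the absolute log2 fold change over the root of the test's F statistic. The common biological coefficient of variation was 29.3%. The fit was tested on simulated data. No 2 libraries of a group agreed within sampling noise. The alternatives were RLE and upper-quartile scaling, no filter, a stricter filter, limma-voom (limma 3.58.1), DESeq2 1.42.0, a replicate block, and each library left out. Text naming followed a rule: every member is accounted for, with all libraries given for members called in the main test or without 1 library, receptor chains, coreceptors, Foxp3, granule genes, Il7r and Il2ra, and of each other list up to 4 called genes or the 2 of smallest p. Some genes are not reported here. Of the gamma-delta list 11 of 17 symbols were matched. Members and lists were chosen with earlier results of these data known.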

Additional observations from a re-analysis of the deposited data

Results flagged for a closer look

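In 5 of the 38 members a single control library lay far from the other 4 controls by Dixon's test, and in all 5 it was control library 4. Such a test flags about 1 in 20 groups by chance when values follow a normal distribution. Most of the 5 rest on few counts and all come from the same library, so 5 of 38 cannot be set against that rate. For Cd3d the test's ratio was 0.711, against a critical value of 0.71. Il2rb had 1.93 CPM (57 counts) there, against 0.0963 to 0.307 CPM in the other controls. Cd8a had 0.27 CPM (8 counts), against 0 to 0.0381 CPM. Gzma also had 0.27 CPM (8 counts), against 0 to 0.0381 CPM. Cd3d had 0.237 CPM (7 counts), against 0 to 0.0683 CPM. Cd8b1 had 0.203 CPM (6 counts), against 0 to 0.0369 CPM. Control library 4 was the highest control for 19 of the 38 members, and for 28.0% of identifiers with a count in a control. In that library the adipocyte sum was the highest and the epithelial sum the lowest of the controls, and the part of this in the 5 values was not tested.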

How the results depend on the processing

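Over all genes 180 passed, against 1584 with DESeq2, 0 with a replicate block, 2 in the same 6 libraries without the block, and 4 to 1222 with 1 library left out. Of the members 1 passed, against 2 with RLE scaling (Cd3d and Il7r), 0 with upper-quartile scaling, 3 with no filter (Trbc2, Cd3d and Il7r), 0 with a stricter filter, 11 with DESeq2 (4.86% of genes rose), 0 with limma-voom, 0 with the replicate block or in those 6 libraries without it, and 0 to 14 with 1 library left out. The stricter filter kept 14 members, and Cd3d was not among them, so its call was not tested there. Of the 11 from DESeq2, 10 were also called by edgeR without SDS library 3. Of the related genes 3 passed, all higher, against 5 with RLE and 8 with no filter, all higher, 1 with the stricter filter, which was lower (Gzmm, -1.18, adjusted p = 0.0492), 37 with DESeq2 (33 higher and 4 lower, among them Prkcq, Gzmm and Il5), 0 with limma-voom, 0 with the replicate block or without it in 6 libraries, and 0 to 37 with 1 library left out, the highest without SDS library 3 (35 higher and 2 lower). The members' median log2 fold change of 1.36 was 2.03 with no filter, 0.67 with the stricter filter, 2.12 with DESeq2 and 1.04 to 2.51 with 1 library left out.

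For Cd3d the log2 fold change was 3.49 to 5.04 over 15 alternatives, and the call was lost in 10 of them. Besides the libraries named above these were upper-quartile scaling (adjusted p = 0.0503), limma-voom (0.0528), the replicate block (0.0754) and its 6 libraries without the block (0.147). Direction turned for 3 of 26 members, none of them called. With 1 library left out, Cd28 ran from -0.18 (without SDS library 2) to 0.83, Thy1 from -0.07 (without SDS library 2) to 0.52 and Bcl11b from -0.17 to 0.09 (without SDS library 2 or control library 5; 0.04 without control library 2 or 3). Thy1 was -0.02 with the replicate block and Bcl11b was 0.03 with limma-voom.

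Whether the replicate numbers pair the libraries cannot be told from 3 numbers. Same-numbered libraries correlated at 0.443, -0.005 and 0.251 in their deviations from group means. With other numbers, SDS libraries 1, 2 and 3 correlated at -0.367 to -0.183, -0.008 to 0.011 and -0.303 to 0.126. SDS libraries 1 and 3 correlated best with their own number and SDS library 2 did not. The unblocked comparison of 6 libraries was chosen after seeing the data. Depth limits the 12 members below the filter, for which differences of a few counts were not detectable, and 3 SDS libraries give 1 discordant library a large part in every value.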
